A study of Bos taurus with 8 samples.

Results

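The genes described here are the collagen chain genes of bovine embryonic stem cells (bESCs), taken as every row of the count table whose symbol is COL, a number, A and a number. The rule found 44 genes among the 32637 with values, and 36 of them passed the filter on low counts that left 15744 genes for testing. The 4 bESC lines, A, C, D and E, all of genotype XX and derived from early or full blastocysts of in vitro produced embryos, were grown in 5% O2 in NBFR medium. Each line was sequenced once on MEF (irradiated mouse embryonic fibroblasts, a feeder layer) at passage 15 to 17 and once in feeder-free conditions on vitronectin (VTN) at passage 20 to 22, which gave 4 libraries per condition, 8 in all. Culture matrix and passage therefore changed together, and their effects cannot be told apart. The methods add Activin A for culture without feeders, whereas the library titles carry 1 medium name, NBFRA, in both conditions, so whether the medium differed is not settled. The lines were independent lines and are the biological replicates, and the same lines were used in both conditions.

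Collagens are extracellular proteins in which 3 chains wind into a triple helix, and the chains of one molecule may come from 1 gene or from several. Fibrillar collagens such as types I, II, III, V and XI form the fibres of connective tissue and cartilage. Type IV collagen forms the network of basement membranes, the sheets on which epithelia, the epiblast included, rest. Multiplexins (types XV and XVIII) sit in or next to basement membranes, FACIT collagens decorate the surface of fibrils, type VI forms beaded filaments, type VIII forms short-chain networks, and transmembrane collagens stay anchored in the plasma membrane. Vitronectin and the collagens are separate matrix proteins bound by different receptors.

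Total counts on genes were 44268717 to 54296425 per library on MEF and 49671478 to 51320214 in feeder-free conditions, except for line D in feeder-free conditions, which reached 102351560. Values are given as CPM (counts of a gene per M counts of the library, after TMM scaling). CPM is not divided by transcript length, so levels are compared between libraries for one gene and not between genes. In these bulk libraries, fewer cells of a type and less RNA per cell cannot be told apart. Of 10 pluripotency genes on the marker list, 9 had a row in the count table, with POU5F1 at 1724 to 2340 CPM, and CDX2, which defines trophoblast, had 0 counts in all 8 libraries. Other members of these lists differed. DPPA4 of the pluripotency list was at 0.0385 to 0.361 CPM. Of 8 trophoblast markers 5 averaged under 1 CPM, but KRT18 had 148 to 941 CPM and KRT7 had 19.0 to 113 CPM.

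Collagen chain counts made up 0.325 to 0.419% of all counts in the MEF libraries and 0.232 to 0.459% in the feeder-free ones, so the groups overlapped. The summed level was 3579, 3765, 4136 and 3324 CPM on MEF in lines A, C, D and E, and 2306, 3944, 4589 and 2381 CPM in feeder-free conditions. It was thus lower without feeders in lines A and E and higher in lines C and D. The 8 genes with the most counts (COL2A1, COL18A1, COL1A1, COL15A1, COL4A1, COL4A2, COL5A1 and COL26A1) held 85.7 to 90.4% of collagen counts in each library.

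In the fit on condition alone, none of the 36 tested collagen genes passed the thresholds. edgeR's quasi-likelihood (QL) test called 0 upregulated and 0 downregulated (adjusted P-value under 0.05 and fold change of at least 1.5), while 9 had an unadjusted P-value under 0.05. Over all genes tested, the same rule called 0.724% upregulated and 1.00% downregulated. Other tools without the line term called 2 upregulated and 2 downregulated collagens (DESeq2 and edgeR's likelihood ratio test) or 0 and 0 (limma-voom). Over all 15744 genes, DESeq2 called 695 upregulated and 517 downregulated, the likelihood ratio test 448 and 389, and limma-voom 79 and 150. Collagen calls thus differed between tools along with the calls over all genes. When line was added as a term, so that each feeder-free library was set against the MEF library of its own line, 3 collagen genes were upregulated (COL3A1, COL12A1 and COL14A1) and 3 were downregulated (COL1A2, COL2A1 and COL13A1). These were 8.33% of the tested collagens in each direction, beside 5.52% of all genes upregulated and 4.53% downregulated in that paired fit, so collagens as a group were called at a share near that of all genes. COL3A1 and COL1A2 were called when any line was left out of the paired fit, and the other 4 calls were each lost without at least 1 line. Without line C or D only COL3A1 was upregulated, and without line A or E only COL1A2 was downregulated.

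**Figure D1:**
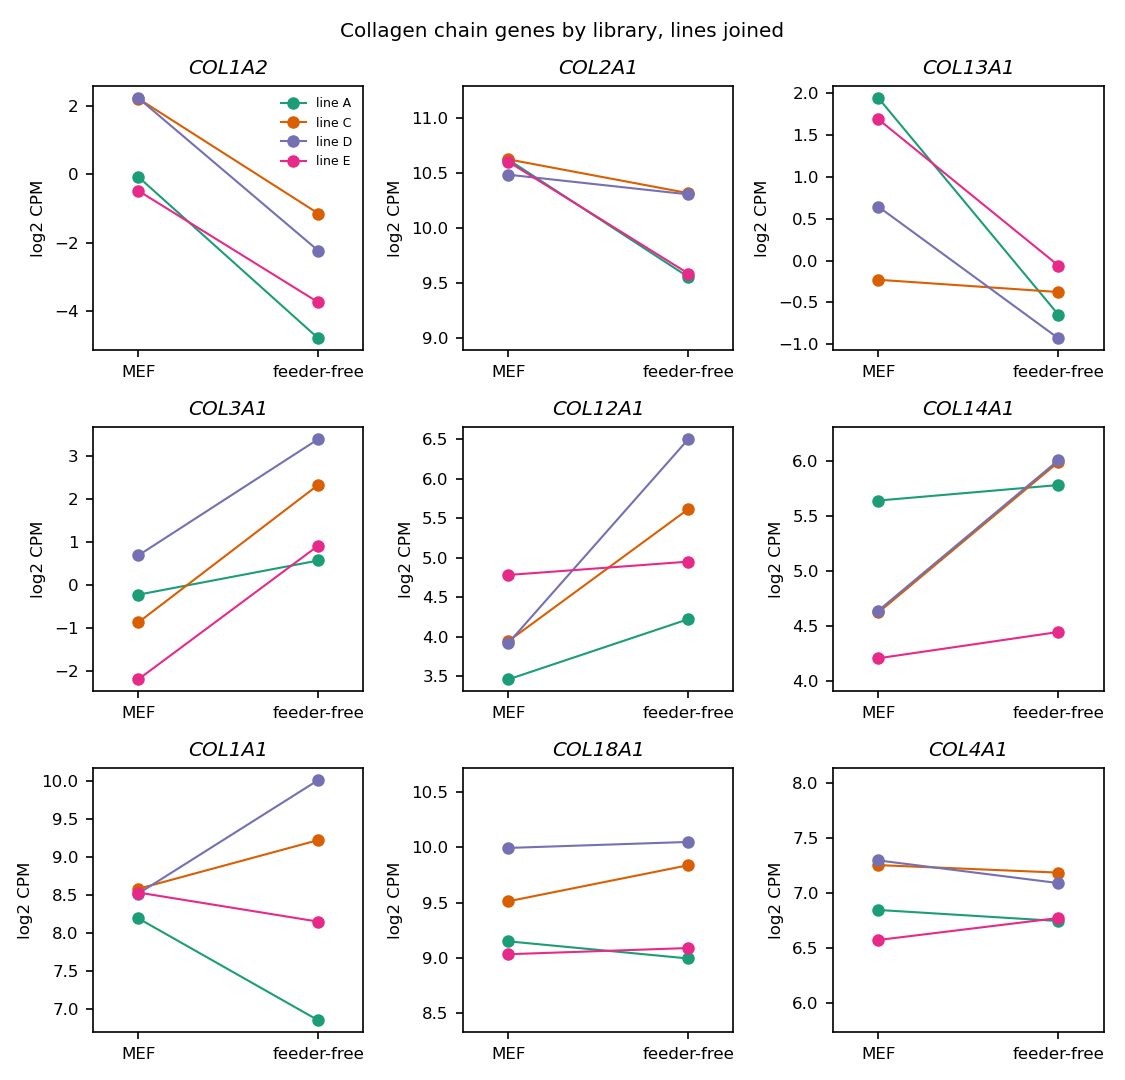
Log2 CPM (vertical axis, an own range per panel) of 9 collagen chain genes on MEF and in feeder-free conditions, 1 point per library with the 2 libraries of a line joined. COL1A2 and COL2A1 fell in all 4 lines without overlap of the groups, COL3A1 and COL12A1 were higher in all 4 lines with overlap, and COL1A1 was lower in lines A and E and higher in lines C and D.

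COL1A2, which encodes the α2 chain of type I collagen, showed the widest fitted fold change among the 36 tested collagens and was far lower without feeders. In the ARS-UCD2.0 build it spans 11776417 to 11813113 of chromosome 4. Its raw counts on MEF were 38, 253, 225 and 30 in lines A, C, D and E, and in feeder-free conditions 0, 22, 18 and 2. Every feeder-free library was below every MEF library, and lines C and D were the high ones in both conditions. In CPM it went from 2.71 ± 2.21 (SD, n = 4) on MEF to 0.157 ± 0.187 (SD, n = 4), and the 0 in line A allows up to 0.0602 CPM (3 counts, counting error only). The log2 fold change was -4.08 (standard error, SE, 1.08, edgeR QL adjusted p = 0.0747) on condition alone and -4.35 (SE 0.52, edgeR QL adjusted p = 0.00166) with line as a term. The first of these was -5.04 when line C in feeder-free conditions was left out.

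COL1A1, which encodes the α1 chain that makes up most of the type I molecule, had no such fall. The gene lies on chromosome 19 from 36457711 to 36474476. It had 292, 382, 366 and 370 CPM on MEF and 115, 597, 1033 and 283 CPM in feeder-free conditions in lines A, C, D and E. The MEF libraries were close together, whereas the feeder-free libraries spread on both sides of them. Per line, the log2 ratio of feeder-free to MEF was -1.34 in A, 0.64 in C, 1.5 in D and -0.38 in E, and the fitted log2 fold change was 0.52 (SE 0.53, edgeR QL adjusted p = 0.621), or -0.09 without the feeder-free library of line D. The ratio of COL1A1 to COL1A2 counts, which is not corrected for length and so is read only across libraries, was 320.2, 83.3, 78.8 and 544 on MEF. In the 3 feeder-free libraries with any COL1A2 count it was 1441 in line C, 5875 in line D and 7364 in line E. These rest on 22, 18 and 2 COL1A2 counts, so they are imprecise, that of line E most of all. The ranges did not overlap, which mostly repeats the lower COL1A2 counts and is no separate result. Type I collagen is usually built from 2 α1 chains and 1 α2 chain, and α1 chains can also form a homotrimer; no protein was measured here.

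COL3A1, the single chain of type III collagen and a common partner of type I in fibres, was upregulated in the paired fit from a very low level. It lies on chromosome 2 from 7375278 to 7414912. It had 0.816, 0.508, 1.57 and 0.181 CPM on MEF (34, 28, 76 and 8 counts) and 1.44, 4.99, 10.5 and 1.85 CPM in feeder-free conditions (72, 265, 1073 and 96 counts) in lines A, C, D and E. It was higher in 4 of 4 lines, but line A without feeders was below line D on MEF, so the groups overlapped. The log2 fold change was 2.61 (SE 0.78, adjusted p = 0.0994) on condition alone and 2.53 (SE 0.43, adjusted p = 0.00654) with line as a term, both by edgeR's QL test. On condition alone it was 1.84 without the feeder-free library of line D and 3.23 without the MEF library of that line.

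COL2A1, the single chain of type II collagen, best known from cartilage and notochord, took the most counts of any collagen and was lower in all 4 lines without feeders. It lies on chromosome 5 from 32283180 to 32313172. Its level was 1578, 1580, 1435 and 1556 CPM on MEF and 753, 1277, 1267 and 770 CPM in feeder-free conditions in lines A, C, D and E. All feeder-free libraries were below all MEF libraries, with the wider differences in lines A and E, where the log2 ratios were -1.07 and -1.01, against -0.31 in C and -0.18 in D. The log2 fold change was -0.60 (SE 0.20, adjusted p = 0.130) on condition alone and -0.64 (SE 0.16, adjusted p = 0.0275) with line as a term, by edgeR's QL test. Without line A, C or E in the paired fit, COL2A1 was not called.

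The other fibrillar genes gave no call in either fit. COL5A1, a chain of type V collagen, which takes part in starting fibrils, had 85.3, 89.4, 71.7 and 59.6 CPM on MEF and 70.6, 119, 90.3 and 51.9 CPM without feeders, with a log2 fold change of 0.12 (SE 0.24). Its partner chains COL5A2 and COL5A3 had log2 fold changes of -0.32 and -0.83, each lower in lines A, C and E and higher in line D. Both were called downregulated in the paired fit only when line D was left out, and on condition alone COL5A3 had -1.76 without the feeder-free library of that line. COL11A1 and COL11A2, chains of type XI collagen, had -0.38 and 0.29, while COL24A1 and COL27A1 had -0.19 and -0.37.

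The FACIT genes were the class whose members lay mostly above 0. Of 10 genes, 8 were tested and 7 had a log2 fold change above 0, from 0.21 for COL21A1 to 1.46 for COL12A1, with a class median of 0.56 beside 0.006 for all genes tested. Over all genes tested, 7960 of 15744 lay above 0. COL9A2, COL21A1 and COL22A1 were barely read, at means of 0.373, 0.620 and 0.557 CPM over all libraries, and COL21A1 changed sign with some libraries left out. None passed on condition alone and 2 passed with line as a term. COL12A1, which encodes the chain of type XII collagen and lies on chromosome 9 from 14661264 to 14776400, had 10.9, 15.3, 15.1 and 27.5 CPM on MEF and 18.6, 49.0, 90.8 and 30.9 CPM in feeder-free conditions in lines A, C, D and E. It was higher in 4 of 4 lines, by little in line E (log2 ratio 0.17) and most in line D (2.59), and the groups overlapped. Its log2 fold change was 1.46 (SE 0.47, adjusted p = 0.113) on condition alone and 1.30 (SE 0.33, adjusted p = 0.0280) with line as a term, by edgeR's QL test.

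COL14A1, which encodes the chain of type XIV collagen, another fibril-associated protein, lies on chromosome 14 from 81497455 to 81730369. It had 49.8, 24.6, 24.9 and 18.5 CPM on MEF and 54.9, 63.5, 64.2 and 21.8 CPM in feeder-free conditions. It was higher in 4 of 4 lines, by log2 ratios of 1.37 in C and 1.36 in D but only 0.14 in A and 0.24 in E, and the groups overlapped. Its log2 fold change was 0.80 (SE 0.38, adjusted p = 0.270) on condition alone and 0.78 (SE 0.22, adjusted p = 0.0416) with line as a term, by edgeR's QL test. Type IX collagen, the FACIT of cartilage fibrils, has 3 chains, whose fold changes differed in sign without a call: COL9A1 had a log2 fold change of 1.09 (SE 0.90), COL9A2 of 0.57 and COL9A3 of -0.57. COL9A1 was at 0.0453 CPM on MEF in line E (2 counts) and at 3.77 CPM in the same line without feeders. Without the MEF library of line A, COL9A1 had a log2 fold change of 2.02 and COL9A3 of 0.17. COL9A3 overlaps TCFL5, and no source gives the strand setting of the counting, so its counts are less certain. COL16A1, COL21A1 and COL22A1 had log2 fold changes of 0.47, 0.21 and 0.55. Summed over the class, FACIT genes had 61.9 to 87.9 CPM on MEF and 74.7 to 200.4 CPM in feeder-free conditions. The sum was higher in 4 of 4 lines, by log2 ratios of 0.19 in A, 1.18 in C, 1.63 in D and 0.27 in E. Most of it came from COL12A1 and COL14A1 in every library, so it adds little to what those genes show.

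The genes of type IV collagen gave no call in either fit, and the 2 most read ones kept close to their MEF levels. COL4A1 and COL4A2, whose chains form the type IV molecule found in nearly all basement membranes, are neighbours on chromosome 12, from 84863917 to 84995777 and from 84996172 to 85157766, with 394 bases between them. COL4A1 had 115, 152, 157 and 95.1 CPM on MEF in lines A, C, D and E, and 107, 145, 136 and 109 CPM in feeder-free conditions. COL4A2 had 103, 132, 142 and 94.7 CPM on MEF and 96.7, 109, 112 and 102 CPM without feeders. For both, the feeder-free range lay within the MEF range, though within lines each was lower in A, C and D and higher in E. The log2 fold changes were -0.06 (SE 0.18) and -0.17 (SE 0.15), and neither was called in any fit run. The ratio of COL4A1 to COL4A2 counts stayed within 1.01 to 1.16 on MEF and 1.08 to 1.33 in feeder-free conditions.

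COL4A5 and COL4A6, the pair of type IV genes next to each other on chromosome X, had log2 fold changes of -0.23 and -0.37. COL4A6 was lower in 4 of 4 lines, with an adjusted p of 0.0766 in edgeR's QL test with line as a term, and was not called. Their count ratio was 1.78 to 2.28 on MEF and 1.94 to 2.78 without feeders. The third pair, COL4A3 and COL4A4, encodes chains of specialised membranes such as that of the kidney glomerulus, and was barely read. COL4A4 had 28, 22, 25 and 17 counts on MEF and 46, 49, 74 and 44 counts in feeder-free conditions, and every feeder-free library was above every MEF library in CPM. It was 1 of 36 tested collagens (2.78%) with that separation, beside 6.21% of all genes, and its log2 fold change of 0.79 had an adjusted p of 0.228 in edgeR's QL test. COL4A4 overlaps RHBDD1, a tested gene. COL4A3 had at most 24 counts per library and was not tested.

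**Figure D2:**
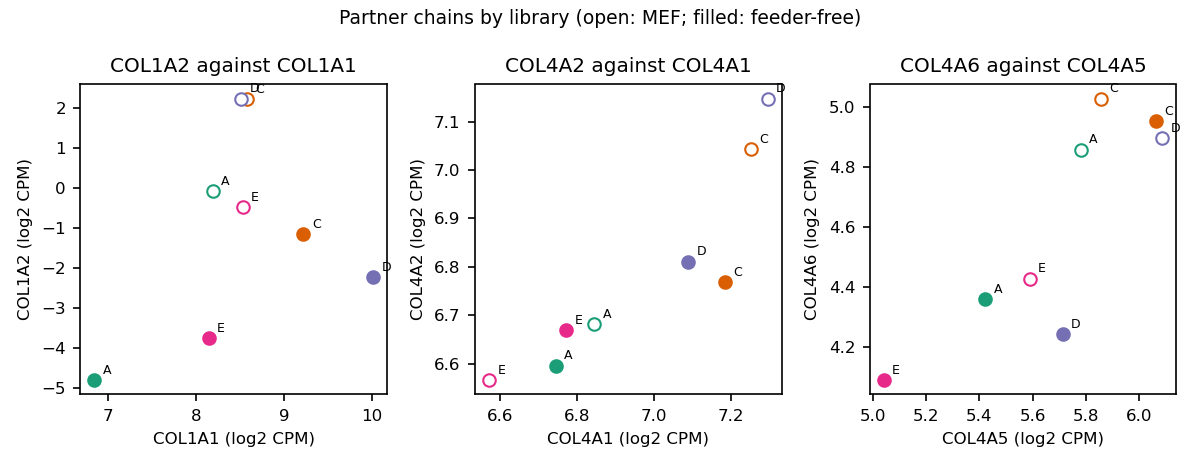
Log2 CPM of 1 chain gene against that of its partner in each of the 8 libraries, with open points for MEF, filled points for feeder-free conditions and letters for lines. COL4A2 followed COL4A1, with all 8 libraries along 1 band, whereas COL1A2 was lower in feeder-free libraries at COL1A1 levels on both sides of the MEF ones.

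The multiplexin genes, whose proteins join basement membranes to the matrix around them, varied more between lines than between conditions. COL18A1, whose product releases the fragment endostatin, had 567, 730, 1021 and 523 CPM on MEF and 509, 916, 1060 and 544 CPM in feeder-free conditions in lines A, C, D and E. Line D was highest and lines A and E lowest in both conditions, and the log2 fold change was 0.09 (SE 0.29). COL18A1 overlaps 3 other tested genes in the annotation, so its counts are less certain. COL15A1 had 336, 249.9, 469.9 and 204 CPM on MEF and 248, 243, 328 and 179 CPM in feeder-free conditions. It was lower in 4 of 4 lines, by little in line C (log2 ratio -0.04), with a log2 fold change of -0.33 (SE 0.27, edgeR QL adjusted p = 0.527, and 0.105 with line as a term).

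Among transmembrane collagens, COL13A1, a cell surface collagen found at sites of cell adhesion and at the neuromuscular junction, was downregulated in the paired fit. It lies on chromosome 28 from 26095666 to 26248051. It had 159, 45, 74 and 141 counts on MEF and 30, 39, 50 and 48 counts in feeder-free conditions in lines A, C, D and E, or 3.82, 0.817, 1.53 and 3.19 CPM against 0.602, 0.734, 0.488 and 0.923 CPM. All 4 lines were lower, line C by a log2 ratio of only -0.15, and line C on MEF lay below line E without feeders. The log2 fold change was -1.77 (SE 0.50, adjusted p = 0.0872) on condition alone and -1.58 (SE 0.43, adjusted p = 0.0359) with line as a term, by edgeR's QL test. COL25A1, also transmembrane, was lower in every feeder-free library than in any MEF library (1.10, 1.76, 1.47 and 1.13 CPM against 1.06, 0.621, 0.596 and 0.462 CPM), with a log2 fold change of -1.0 (SE 0.37) and no call in either fit. With COL1A2 and COL2A1, COL25A1 made 3 of 36 tested collagens (8.33%) with all feeder-free libraries below all MEF libraries, beside 8.35% of all genes tested. COL23A1 had a log2 fold change of 0.38.

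The remaining classes gave no call in either fit. The type VI genes COL6A1, COL6A2 and COL6A3 had log2 fold changes of -0.23, 0.00 and -0.38, and their summed level was 17.5 to 29.4 CPM on MEF and 13.6 to 28.8 CPM without feeders. COL8A1 and COL8A2, the chains of type VIII collagen, had -0.09 and -0.83. COL7A1, whose product forms the anchoring fibrils under the epidermis, was lower in 4 of 4 lines with a log2 fold change of -0.35 (edgeR QL adjusted p = 0.0797 with line as a term). COL26A1 had 79.3, 88.0, 76.2 and 72.9 CPM on MEF and 75.1, 87.2, 55.1 and 79.8 CPM without feeders, with a log2 fold change of -0.09; it overlaps a tested locus without a gene name.

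In all, 8 collagen genes were too low to test. COL6A5 had 0 counts in all 8 libraries, COL6A6, COL19A1, COL20A1 and COL28A1 had at most 6 counts in any library, and COL10A1 had 2 to 14. COL17A1, a collagen of epithelial attachment, had 0 to 12 counts in 7 libraries and 75 counts in line D without feeders.

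**Figure D3:**
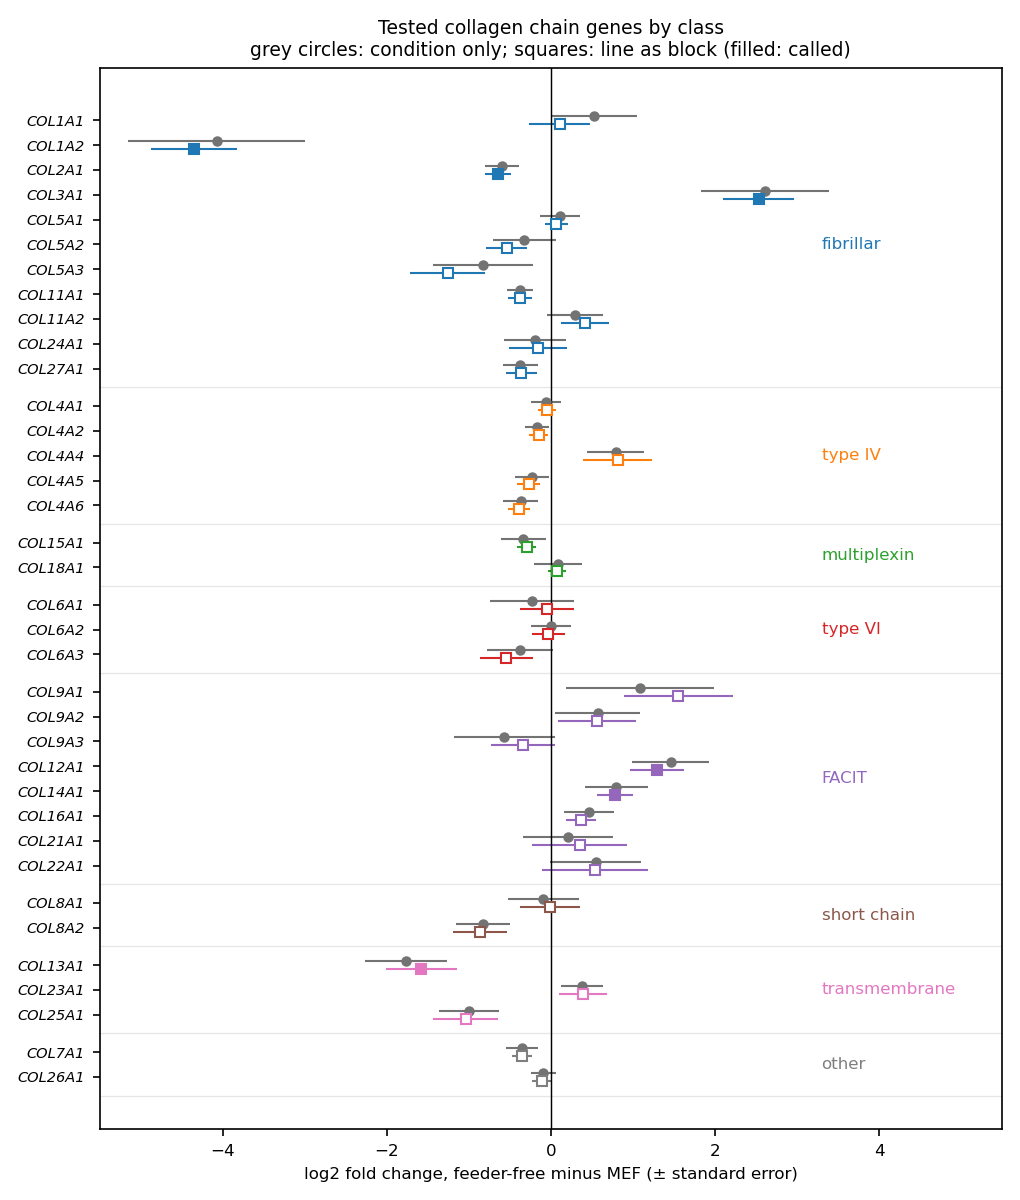
Log2 fold change (feeder-free minus MEF, with standard errors) of the 36 tested collagen genes by class, on condition alone (grey circles) and with line as a term (squares, filled where called). Of the fibrillar genes COL1A2 and COL3A1 lie farthest out on opposite sides, 7 of 8 FACIT genes lie above 0, and type IV genes other than COL4A4 lie close to 0.

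Set side by side, the classes overlapped in their fold changes. On condition alone the median log2 fold change was -0.32 over 11 fibrillar genes (range -4.08 to 2.61), -0.17 over 5 type IV genes, -0.12 over 2 multiplexins, -0.23 over 3 type VI genes, 0.56 over 8 FACIT genes, -0.46 over the 2 type VIII genes, -1.0 over 3 transmembrane genes and -0.22 over COL7A1 and COL26A1. The median of all 36 tested collagens was -0.13, and 15 lay above 0 and 21 below. Fibrillar genes summed to 2041 to 2207 CPM on MEF and to 1059, 2141, 2577 and 1200 CPM in feeder-free lines A, C, D and E. Type IV genes summed to 260 to 397 CPM on MEF and 262 to 353 CPM in feeder-free conditions. The fibrillar sum was thus tight on MEF and split without feeders, low in lines A and E. Most of it came from COL2A1 and COL1A1 in every library, so the split was mainly that of these genes and not of the class. The type IV sum stayed within its MEF range, lower in lines A, C and D and almost unchanged in line E. Sums are not corrected for length and are read only across libraries. No test over a class was made.

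The make-up of the collagen counts shifted away from COL2A1. Its share was 44.1, 42.0, 34.7 and 46.8% of collagen counts on MEF in lines A, C, D and E (41.9 ± 5.20, SD, n = 4) and 32.7, 32.4, 27.6 and 32.3% in feeder-free conditions (31.3 ± 2.43, SD, n = 4). The ranges did not overlap and the share was lower in 4 of 4 lines. COL18A1 held 18.9 ± 4.20% (SD, n = 4) on MEF and 22.8 ± 0.511% (SD, n = 4) without feeders, with line D slightly lower and the other lines higher. COL1A1 held 9.57 ± 1.33% (SD, n = 4) on MEF and 13.6 ± 7.28% (SD, n = 4) in feeder-free conditions, from 4.99% in line A to 22.5% in line D. The widest 95% Wilson interval of any share spanned 0.542 percentage points, for counting error only. Since shares sum to a whole, a change in 1 gene moves the others.

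**Figure D4:**
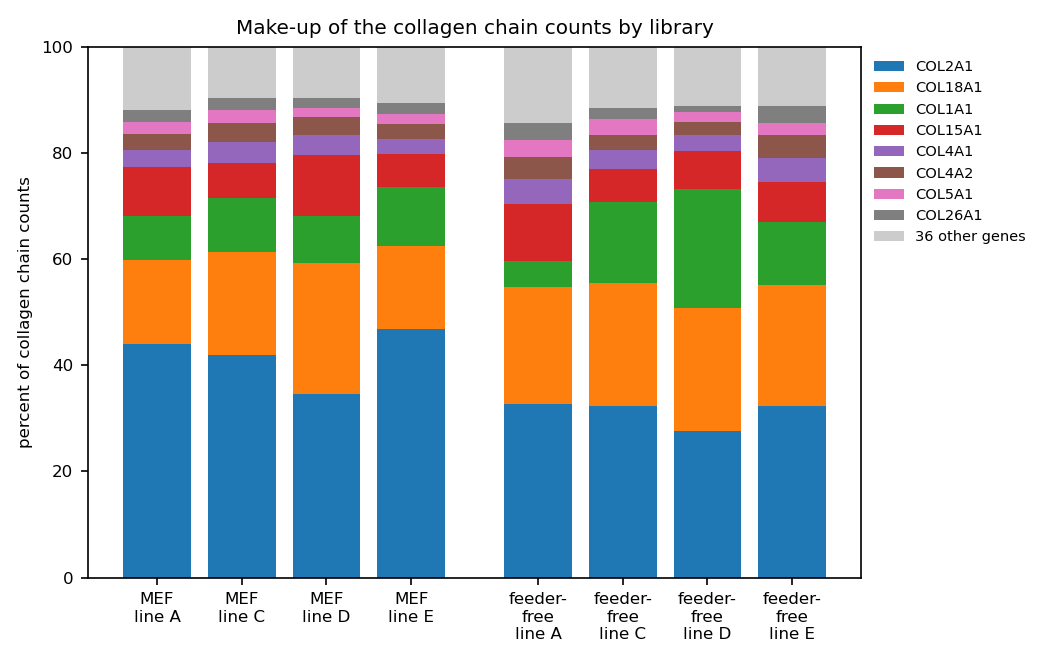
Share of each library's collagen chain counts (percent, stacked to 100) taken by the 8 genes with the most counts and by the other 36 together. COL2A1 is 34.7 to 46.8% of each MEF bar and 27.6 to 32.7% of each feeder-free bar, and COL1A1 ranges from 4.99 to 22.5% among feeder-free bars.

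Genes that modify, fold, cut, cross-link and bind collagens were read from fixed lists. On condition alone 0 of the 49 tested genes of these 5 lists were called, and with line as a term 4 were upregulated and 2 downregulated, counts near the shares of all genes called in that fit (5.52% and 4.53%). Among 16 genes for chain modification, PLOD1, a lysyl hydroxylase, had 241, 156, 170 and 161 CPM on MEF and 148, 123, 85.4 and 87.3 CPM in feeder-free conditions in lines A, C, D and E. It was lower in 4 of 4 lines, with a log2 fold change of -0.73 (SE 0.13, adjusted p = 0.00681 with line as a term, edgeR QL). P4HB, the protein disulfide isomerase subunit of prolyl 4-hydroxylase and the most counted of its list, had a log2 fold change of -0.09. The prolyl hydroxylase subunits P4HA1 and P4HA2 had -0.60 and -0.25 on condition alone, without a call in either fit.

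SERPINH1, which encodes HSP47, the chaperone of collagen triple helices in the endoplasmic reticulum, was the 1 gene of 9 called among folding and export genes. It had 547, 616, 584 and 542 CPM on MEF and 667, 1056, 1236 and 762 CPM in feeder-free conditions, with all feeder-free libraries above all MEF ones. Its log2 fold change was 0.70 (adjusted p = 0.0860) on condition alone and 0.66 (SE 0.14, adjusted p = 0.0136) with line as a term, by edgeR's QL test. Of 9 genes for propeptide removal, TLL1, a protease of the BMP1 family, was downregulated in the paired fit (log2 fold change -1.06, edgeR QL adjusted p = 0.0132). PCOLCE2, an enhancer of the protease that removes the C-propeptide, was upregulated (0.64, adjusted p = 0.0454). BMP1 itself had a log2 fold change of 0.42 in that fit and no call.

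None of the 6 tested cross-linking genes (LOX, LOXL1, LOXL2, LOXL3, TGM2 and PXDN) was called. PXDN, the peroxidase that joins type IV molecules and the most counted gene of that list, had a log2 fold change of -0.38 on condition alone. With line as a term it had -0.40 (edgeR QL adjusted p = 0.0342), and the fold threshold alone kept it uncalled. In the other lists the same held in that fit for P3H3 (-0.54, adjusted p = 0.0250), MIA2 (0.55, 0.0261) and DDR1 (0.39, 0.043). LOX had -0.66 (SE 0.90) with line as a term. Of 9 tested receptors, ITGA2, the α2 chain of a collagen-binding integrin, was upregulated in the paired fit (0.64, edgeR QL adjusted p = 0.0169). ADGRG1, an adhesion receptor of type III collagen, rose in the paired fit, from 0.576, 1.6, 2.50 and 0.543 CPM on MEF to 2.79, 9.62, 13.7 and 4.31 CPM in feeder-free conditions (log2 fold change 2.57, SE 0.23, adjusted p = 0.000470 with line as a term in edgeR). ITGB1, the integrin partner of the collagen-binding α chains, was the most counted of the list and had a log2 fold change of 0.41 there with no call.

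**Figure D5:**
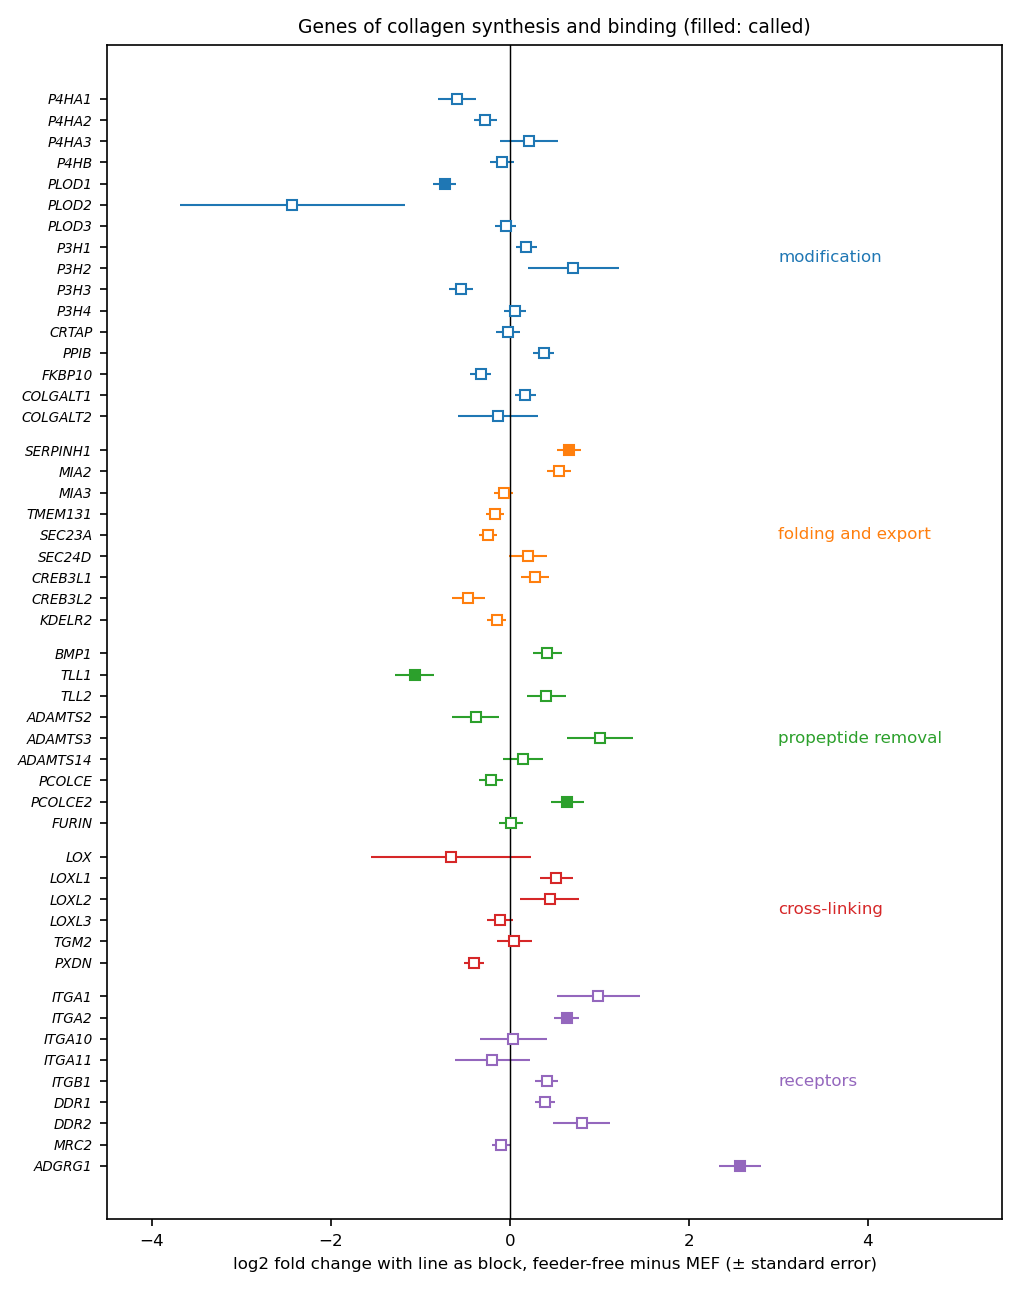
Log2 fold change with line as a term (feeder-free minus MEF, with standard errors) of the tested genes for collagen modification, folding and export, propeptide removal, cross-linking and binding, filled where called. PLOD1 and TLL1 are the called genes below 0, and SERPINH1, PCOLCE2, ITGA2 and ADGRG1 those above 0.

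Markers of other cells were read beside the collagens. Of 18 fibroblast markers, 13 were tested and 0 were called on condition alone. Fold changes lay above 0 on the log2 scale for 8 of the 13, with a median of 0.49. Over all genes tested, 7960 of 15744 lay above 0, with a median of 0.006. The summed level of the fibroblast markers was 104 to 159 CPM on MEF and 118 to 254 CPM in feeder-free conditions. The log2 ratio of this sum was 0.85 in line C and 1.00 in D, but 0.19 in E and 0.009 in A, almost no change. Per line, the median log2 ratio of the tested markers was 0.0 in A, 0.64 in C, 0.43 in D and -0.22 in E. LUM averaged 19.0 ± 4.16 CPM with feeders and 42.3 ± 27.7 CPM without, and FBN1 averaged 23.7 ± 4.54 CPM with feeders and 44.1 ± 27.3 CPM without (SD, n = 4 each), and neither was called in either fit. TWIST2, FAP and TCF21 had 0 counts in all feeder-free libraries, TCF21 in all MEF libraries as well and FAP in those of lines A and D. PRRX1 had 1.15, 2.56, 2.62 and 1.02 CPM on MEF in lines A, C, D and E and 0, 0.0565, 0.606 and 0.0385 CPM in feeder-free conditions, and like COL1A2 it was highest on MEF in lines C and D. It was downregulated in the paired fit (log2 fold change -4.15, edgeR QL adjusted p = 0.00759), and POSTN was upregulated. Per the methods, reads that a sample of MEF alone gave on the bovine genome were taken out of the MEF counts, but whether the deposited raw counts date from before or after that step is not given in the sources used here. The part of feeder RNA in the COL1A2 counts was not tested.

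Of 6 smooth muscle markers 5 were tested, and CNN1 and TAGLN were upregulated on condition alone and all 5 (ACTA2, MYH11 and DES as well) with line as a term. Over all genes tested, 0.724% were upregulated on condition alone, and 5.52% were upregulated and 4.53% downregulated with line as a term. The smooth muscle list summed to 92.2, 110, 179 and 119 CPM on MEF and to 157, 1501, 2829 and 1075 CPM in feeder-free lines A, C, D and E. COL1A1, COL3A1 and COL12A1 had that same order among feeder-free libraries, lowest in line A, then E, C and D. So did COL4A2 and COL18A1, which had no call in either fit. COL14A1 did not, with 21.8 CPM in line E, 54.9 in A, 63.5 in C and 64.2 in D. On MEF the smooth muscle sum rose from line A to C, E and D, and none of these collagens had that order. The match was seen only after the values were known. MYOCD, the defining regulator of that list, was at 0.120 CPM or less in all 8 libraries. Of 8 hypoblast and endoderm markers, 3 were tested and 0 called, and GATA4, GATA6 and SOX17 were at 0.352 CPM or less. Of 7 mesoderm markers 3 were tested and EOMES was upregulated in the paired fit, and of 6 tested trophoblast markers KRT7 and KRT18 were upregulated and GATA2 downregulated there. None of the 9 pluripotency genes was called in either fit, with a summed level of 4132 to 4603 CPM on MEF and 3587 to 3788 CPM without feeders. The fold threshold alone kept SALL4 uncalled (log2 fold change -0.58, edgeR QL adjusted p = 0.0426 on condition alone and 0.00614 with line as a term). With line as a term the same held for SOX2 (-0.35, adjusted p = 0.0436), LIN28B (-0.35, 0.0456) and PRDM14 (0.37, 0.0481). Of the 9, 6 lay below 0 and 3 above. The part of other cell types in the collagen differences was not tested.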

How the data were processed

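RNA sequencing of 4 bESC lines on MEF and in feeder-free conditions in 5% O2 (8 libraries) was analysed. Libraries in high oxygen and of MEF alone were not analysed here. The values deposited by the authors are raw counts on genes. Per the paper's methods and the labels, Trimmomatic trimmed the reads, which were then aligned with STAR (genome build ARS-UCD2.0), cleared of optical duplicates (Picard) and of low mapping quality (samtools), and counted with featureCounts (the processing notes list Subread 1.6.2). The strand setting is not given in the sources used here. The labels name Trizol for RNA and the methods an RNeasy kit. The labels give all libraries 1 sequencing batch.

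Counts were used as deposited. Of 32640 genes listed, 3 had no values. After filterByExpr and TMM scaling, 15744 genes were tested with edgeR 4.0.16 (glmQLFit, glmQLFTest; R 4.3.3) on condition, with Benjamini-Hochberg adjustment over all of them. A gene was called if its fold change was 1.5 or more at an adjusted P-value below 0.05. Log2 CPM used a prior count of 2. Standard errors came from the fold change and its F statistic. Total counts ranged from 44268717 to 102351560, and no 2 libraries of a condition agreed within sampling noise (smallest chi-square per degree of freedom 40.8).

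Libraries with the same line letter come from 1 cell line and were treated as pairs. The deviations of a line's 2 libraries from their condition means correlated at 0.582 (A), 0.557 (C), 0.664 (D) and 0.421 (E), against -0.523 to 0.249 between different lines. The fit that includes line is given beside the unpaired one. Fits were tested on simulated counts. Alternatives were RLE or no scaling, other filters, DESeq2 1.42.0, edgeR's likelihood ratio test, no fold threshold, limma-voom (limma 3.58.1), the line term and leaving out each library.

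All collagen genes were named by the rule. Values in every library are given for those called in either fit and for the 8 with the most CPM, and pathway genes are named where called or most counted of their list, with a few more chosen after their values were seen. The members and lists were chosen with earlier results of these data known, so no test over a list and no P-value adjusted over a list is given. Coordinates and overlaps came from the RefSeq annotation of ARS-UCD2.0, which held all 44 genes. Sequences and transcript lengths were not used here.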

Additional observations from a re-analysis of the deposited data

Results flagged for a closer look

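Among 74 groups of 4 libraries examined (36 genes and the total count in each condition), 7 had 1 library far from the other 3, where chance gives about 3.7 (1 in 20). On MEF, in log2 CPM, line A was lowest for COL1A1 (8.19, the others 8.52 to 8.58) and for COL6A3 (1.34, the others 1.74 to 1.82). Line D was lowest for COL2A1 (10.49, the others 10.60 to 10.63), and line E was highest for COL23A1 (0.85, the others 0.46 to 0.49). In feeder-free conditions line E was lowest for COL14A1 (4.45, the others 5.78 to 6.01) and line D for COL22A1 (-1.996, the others -0.26 to -0.21). The total count of line D without feeders, 102351560, stood apart from the others at 49671478 to 51320214. No explanation was tested for these values.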

How the results depend on the processing

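With the replicate block (line as a term, the paired fit), collagen calls went from 0 to 3 upregulated and from 0 to 3 downregulated. With edgeR's likelihood ratio test or DESeq2 they were 2 and 2. With RLE or no scaling, other filters, limma-voom, no fold threshold or any 1 library left out they were 0 in both directions. Leaving out 1 library says little about collagens, since most of those fits called almost no genes at all. Over all genes tested they called 0 to 1 upregulated and 0 to 5 downregulated, except when line A on VTN was dropped (259 and 231). Within the replicate block, alternatives chosen after seeing the data gave 3 and 3 with RLE or no scaling, and 1 to 3 upregulated and 1 to 4 downregulated with 1 line left out. COL3A1 and COL1A2 were called in each of those fits, and the cause of the other changes was not tested. Among the collagens and the listed pathway and marker genes, the calls that the replicate block changed are those named in the report. The transmembrane median was -0.29 with no filter, since COL17A1 entered it. Other class medians moved by no more than the median standard error of their genes. The median of all genes moved by at most 0.05 under other scalings. Of the genes with no call in any fit, 11 changed sign under at least 1 alternative. COL6A2 had -0.030 with the replicate block and -0.068 with limma-voom, and COL8A1 had 0.0091 with limma-voom. With 1 library left out, the log2 fold change of the 6 genes called in the paired fit kept its sign, at 1.84 to 3.23 for COL3A1, 0.94 to 1.78 for COL12A1, 0.63 to 1.17 for COL14A1, -5.04 to -3.69 for COL1A2, -0.72 to -0.48 for COL2A1 and -2.05 to -1.42 for COL13A1. For the genes that changed sign, the log2 fold change ranged from -0.11 to 0.32 for COL18A1, -0.086 to 0.86 for COL1A1, -0.040 to 0.66 for COL21A1, -0.37 to 0.14 for COL24A1, -0.18 to 0.029 for COL26A1, -0.19 to 0.042 for COL4A1, -0.11 to 0.29 for COL5A1, -0.51 to 0.34 for COL6A1, -0.18 to 0.16 for COL6A2, -0.30 to 0.25 for COL8A1 and -0.96 to 0.17 for COL9A3. With 4 lines, calls on condition alone rest on few samples.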
